A study of Mus musculus with 22 samples.

Results

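The transcripts examined here are 9 markers of lymphocytes in mouse liver, chosen by name from a table of 18716 gene rows across all 22 libraries: the T cell genes Cd3d, Cd3e, Cd3g, Cd4, Cd8a and Cd8b1, the B cell genes Cd79a and Cd79b, and the cytotoxic cell gene Nkg7. All 9 were found, and 6 of them passed the filter used for testing (at least 0.5 RPKM in at least 7 libraries). RPKM, the read number scaled to transcript length and library size, is a level per length, so that genes can be compared with each other. The livers all carry the genotype label Fah-/-, loss of the enzyme fumarylacetoacetate hydrolase that ends tyrosine breakdown. In the YC group (n = 7) mice had received td-labelled hepatocytes and were given an agent labelled YC for 28 days after the drug NTBC, which protects Fah-deficient livers, was withdrawn. The vehicle group (n = 8) had the same transplant, withdrawal and interval with vehicle. The D0 group (n = 7) was taken at day 0 and is labelled as normal liver, with no transplant or agent named. Age, sex, the source of the donor cells and the identity of YC are not given in the labels. The design text asks whether YC promotes growth of the transplanted hepatocytes through dedifferentiation.

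T cells recognise antigen through a receptor whose signal is carried into the cell by the CD3 chains. CD4 and CD8 are co-receptors that bind class II and class I major histocompatibility molecules and mark helper and cytotoxic T cells. CD79A and CD79B form the signalling pair of the B cell receptor, and NKG7 is a granule membrane protein of natural killer and cytotoxic T cells. The mouse liver normally holds natural killer cells, T cells and some B cells in its sinusoids, among a large excess of hepatocytes. In whole-liver RNA, fewer cells of a type and less RNA per cell cannot be told apart.

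The 3 CD3 genes lie next to each other on mouse chromosome 9 (mm10), Cd3g at 44969572 to 44980431 on the minus strand, Cd3d at 44981786 to 44987339 on the plus strand and Cd3e at 44998740 to 45009627 on the minus strand. Cd3g and Cd3d are read away from each other, with start sites 1355 bases apart, and 11401 bases separate the ends of Cd3d and Cd3e. Their promoters are shown because 2 of these neighbours, Cd3d and Cd3g, differed between the treated groups while Cd3e was not called, and the promoter of Cd79a is shown beside them as that of a B cell gene. The sequences run 5′ to 3′ over the 250 bases before each start site and come from RefSeq, build GRCm38.p6, which matched 6 of the 9 genes. Capitals mark matches on either strand to an ETS core (GGAAG), an E-box (CAGNTG) or a Runx core (TGNGGT), and no capitals are shared by 2 motifs. The windows are chr9:44981536-44981785 on the plus strand for Cd3d, chr9:45009612-45009861 on the minus strand for Cd3e, chr9:44980432-44980681 on the minus strand for Cd3g and chr7:24897247-24897496 on the plus strand for Cd79a.
Cd3d: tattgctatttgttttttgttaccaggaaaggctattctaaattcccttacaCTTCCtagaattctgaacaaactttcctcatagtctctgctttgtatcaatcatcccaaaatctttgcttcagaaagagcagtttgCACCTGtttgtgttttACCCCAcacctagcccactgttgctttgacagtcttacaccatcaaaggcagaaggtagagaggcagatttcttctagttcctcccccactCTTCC
Cd3e: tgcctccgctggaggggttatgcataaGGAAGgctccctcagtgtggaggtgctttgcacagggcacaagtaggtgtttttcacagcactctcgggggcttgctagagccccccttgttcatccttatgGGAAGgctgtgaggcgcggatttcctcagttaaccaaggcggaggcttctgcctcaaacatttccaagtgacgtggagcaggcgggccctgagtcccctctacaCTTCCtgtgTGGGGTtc
Cd3g: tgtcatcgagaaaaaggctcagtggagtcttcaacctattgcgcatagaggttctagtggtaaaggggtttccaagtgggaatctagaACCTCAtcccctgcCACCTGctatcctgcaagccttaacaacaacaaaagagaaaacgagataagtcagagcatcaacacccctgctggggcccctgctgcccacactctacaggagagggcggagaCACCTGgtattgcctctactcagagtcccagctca
Cd79a: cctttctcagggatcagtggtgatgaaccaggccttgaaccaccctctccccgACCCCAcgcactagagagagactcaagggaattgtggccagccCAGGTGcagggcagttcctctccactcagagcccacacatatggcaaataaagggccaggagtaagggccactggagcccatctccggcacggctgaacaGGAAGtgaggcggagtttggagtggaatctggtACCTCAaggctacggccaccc
The ETS core was found in 5 of the 6 windows (not in that of Cd3g) and in 64.1% of all 32851 windows of this length. An E-box was found in 4 of the 6 (not in those of Cd3e and Cd8a) and in 44.8% of all, and a Runx core in 5 of the 6 (not in that of Cd8a) and in 40.1% of all. These are matches of letters only.

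Depth recovered from the steps between low values was 50200000 to 82700000 reads or fragments per YC library, 51000000 to 71700000 per vehicle library and 51000000 to 66100000 per D0 library. The 4 Y-linked genes Eif2s3y, Kdm5d, Ddx3y and Uty summed to over 1 RPKM in 3 of 7 YC livers, YC 1 to YC 3, in 8 of 8 vehicle livers and in 0 of 7 D0 livers. A difference between the vehicle and D0 groups therefore cannot be told apart from one that goes with these transcripts. The same holds for the 4 YC livers without them against the vehicle livers, and the comparisons of all YC livers with vehicle livers include these 4. Marker results and most list counts for YC against vehicle livers are also given with the YC livers split by these transcripts. Fah itself had levels of 31.5 to 407 RPKM under YC, 271 to 542 RPKM under vehicle and 21.1 to 38.7 RPKM at D0, with YC 6 and YC 7 (41.3 and 31.5 RPKM) near the D0 range. Alb, the albumin transcript of hepatocytes, was present at 14420 RPKM or more in every library.

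All 9 markers were scarce, each averaging under 5 RPKM in each group. In vehicle livers Nkg7 had the highest mean level at 4.12 RPKM, followed by Cd79b at 3.39, Cd3g at 2.30, Cd79a at 1.89, Cd3d at 1.83, Cd8b1 at 0.890, Cd3e at 0.778, Cd8a at 0.499 and Cd4 at 0.446 RPKM. Neighbours in that order differ by less than the larger of their SDs. Cd4, Cd8a and Cd8b1 reached 0.5 RPKM in only 3, 5 and 4 of the 22 libraries, all but 1 of these being vehicle libraries, and so were not in the fit across genes. Whole reads could be recovered for all 9 markers. The lowest number was 4 reads of Cd8b1 in YC 7 (exact Poisson 95% interval 1.09 to 10.2 reads, counting error only), and the highest was 493 reads of Nkg7 in vehicle 3.

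**Figure D1:**
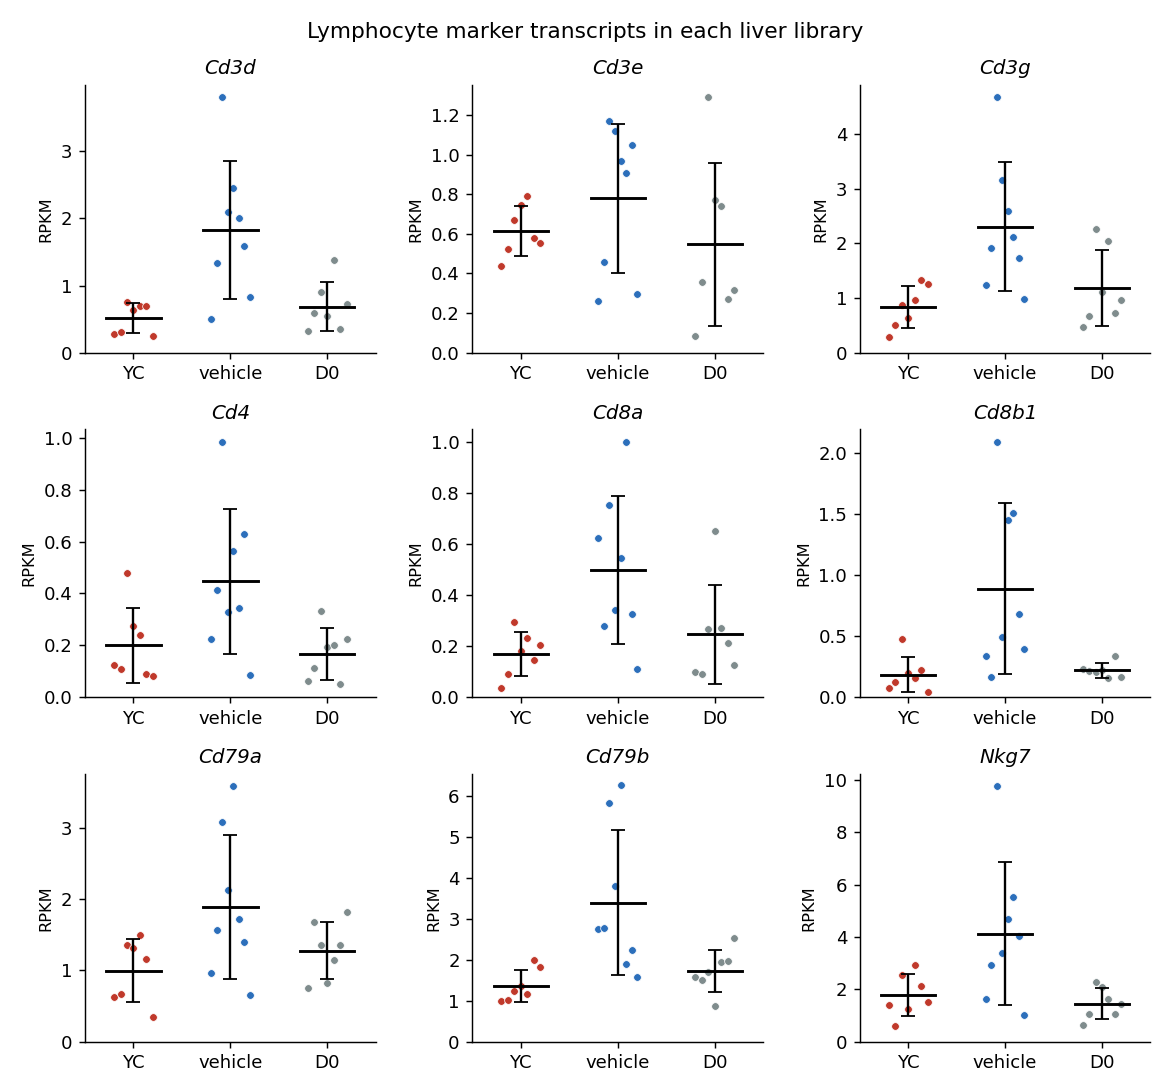
Level of each marker (RPKM, linear axis from 0, scaled per panel) in each YC, vehicle and D0 library, 1 point per library, with bars for the mean and SD (n = 7, 8 and 7). The vehicle livers had the largest SD of the 3 groups for every marker except Cd3e, Nkg7 for example lying between 1.01 and 9.77 RPKM, and every panel has some overlap between groups.

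YC livers held less of most markers than vehicle livers. Of the 6 markers tested, 5 were lower and none higher in YC livers (limma adjusted p under 0.05, Benjamini-Hochberg over 12537 genes). Of all genes tested, 50.7% were called, 44.6% as higher and 6.14% as lower. That split depends on scaling: with median-ratio scaling 18.2% were called higher and 16.7% lower, and the same number of markers, 5, was called lower. The median log2 difference was -0.93 over the 6 markers and 0.31 over all genes, or 0.01 over all genes with median-ratio scaling. Nothing in the labels says that the numbered livers of a group are separate animals, so each p-value covers only the variation between the libraries sequenced, part of which may be technical.

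The CD3 chains were examined first. Cd3d, the delta chain, ranged from 0.256 RPKM over a median of 0.637 to 0.748 RPKM in YC livers, against 0.498, 1.80 and 3.81 RPKM in vehicle livers. Only vehicle 1 lay within the range of the YC livers. Mean levels were 0.517 ± 0.225 RPKM under YC (SD, n = 7) and 1.83 ± 1.03 RPKM under vehicle (SD, n = 8). The difference was -1.10 ± 0.24 on the log2(RPKM + 0.5) scale (SE, limma adjusted p = 0.000708), a scale that understates the change of low genes.

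Cd3g, the gamma chain, behaved likewise. Its lowest, median and highest levels were 0.281, 0.879 and 1.33 RPKM in YC livers, against 0.990, 2.02 and 4.68 RPKM in vehicle livers. Vehicle 1 and vehicle 8 lay within the YC range, and the other 6 vehicle livers above it. YC minus vehicle was -1.02 ± 0.26 on the log2 scale (SE, limma adjusted p = 0.00221).

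Cd3e, the epsilon chain, was not called. It ranged from 0.438 over a median of 0.581 to 0.793 RPKM in YC livers and from 0.261 over 0.938 to 1.17 RPKM in vehicle livers. Vehicle livers fell on both sides of the YC livers, 5 above the highest and the other 3 at 0.261, 0.296 and 0.457 RPKM. This gave a log2 difference of -0.14 ± 0.21 (SE, limma adjusted p = 0.592). The 3 chains are assembled into 1 receptor complex, but their transcripts were not in a fixed ratio. The Cd3e level divided by the Cd3d level was 0.833 to 2.17 under YC, 0.306 to 0.661 under vehicle and 0.261 to 1.43 at D0, with no overlap between YC and vehicle livers. Cd3e over Cd3g did overlap, at 0.438 to 1.56 under YC and 0.211 to 0.605 under vehicle. So did Cd3g over Cd3d, at 1.00 to 4.90 under YC and 1.06 to 2.49 under vehicle. The Cd3d level under YC rests on 17 to 64 reads per liver. A ratio within a library is not affected by scaling, and these ratios are given without a test.

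The co-receptors were too low for the fit, and each was compared by a two-sided exact permutation test of mean log2(RPKM + 0.5). Cd8b1, the beta chain of CD8, ranged from 0.0421 over a median of 0.153 to 0.473 RPKM in YC livers, against 0.163, 0.587 and 2.09 RPKM in vehicle livers. The highest levels were in vehicle 3, vehicle 6 and vehicle 5, while vehicle 1, vehicle 2 and vehicle 8 fell inside the YC range. Summed over the libraries this was 113 reads in 7 YC livers and 595 reads in 8 vehicle livers. The log2 difference was -0.89 (exact permutation p = 0.00528).

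Cd8a, the alpha chain, whose gene lies 35933 bases from Cd8b1 on chromosome 6 (71373427 to 71379173 and 71322788 to 71337494, both on the plus strand), had lowest, median and highest levels of 0.0346, 0.182 and 0.294 RPKM in YC livers. In vehicle livers they were 0.112, 0.445 and 1.00 RPKM, and 6 of 8 vehicle livers were above every YC liver. YC minus vehicle was -0.54 on the log2 scale (exact permutation p = 0.00808). Cd8a also marks some dendritic cells in the mouse, which Cd8b1 does not.

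Cd4 (chromosome 6, 124864692 to 124888221, minus strand) ranged from 0.0824 over a median of 0.126 to 0.481 RPKM in YC livers and from 0.0837 over 0.378 to 0.986 RPKM in vehicle livers. The lowest livers of both groups were alike, and vehicle 3, vehicle 7 and vehicle 5 stood above the YC range. This gave a log2 difference of -0.41 (exact permutation p = 0.0451). The Cd8a level divided by the Cd4 level had a median of 0.813 in YC livers, 1.01 in vehicle livers and 1.35 in D0 livers, with ranges that overlapped among the 3 groups.

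Both B cell receptor chains were lower in YC livers. Cd79b (chromosome 11, 106311341 to 106314762, minus strand) had lowest, median and highest levels of 0.997, 1.24 and 1.99 RPKM in YC livers, against 1.56, 2.76 and 6.26 RPKM in vehicle livers. Vehicle 6 and vehicle 8 lay within the YC range and the other 6 above it. YC minus vehicle was -0.96 ± 0.22 on the log2 scale (SE, limma adjusted p = 0.00112).

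Its partner Cd79a (chromosome 7, 24897381 to 24902197, plus strand) ranged from 0.348 over a median of 1.15 to 1.50 RPKM in YC livers and from 0.658 over 1.65 to 3.59 RPKM in vehicle livers. Vehicle 1, vehicle 7 and vehicle 8 were inside the YC range. This gave a log2 difference of -0.63 ± 0.24 (SE, limma adjusted p = 0.0312), the weakest of the 5 calls. It was lost without any 1 of vehicle 3, vehicle 4, vehicle 5, YC 1, YC 2 and YC 7 (adjusted p between 0.0562 and 0.0785).

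Nkg7 (chromosome 7, 43437073 to 43438249, plus strand) had lowest, median and highest levels of 0.611, 1.52 and 2.92 RPKM in YC livers, against 1.01, 3.70 and 9.77 RPKM in vehicle livers. Vehicle 3 held the highest level and vehicle 8 the lowest of its group, and 5 of 8 vehicle livers lay above every YC liver. The log2 difference was -0.89 ± 0.31 (SE, limma adjusted p = 0.0209). Without YC 2, the lowest liver, the difference was -0.74 and the call was lost (adjusted p = 0.0577), as was that of Cd79a, which left 3 markers called.

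Within the split by Y-linked transcripts, a comparison added after seeing the data, the 3 YC livers with these transcripts differed from the vehicle livers, which all hold them, by -1.21 for Cd3d, -1.35 for Cd3g, -1.18 for Cd79b and -1.09 for Nkg7 on the log2 scale. These 4 markers were called lower (limma adjusted p between 0.00267 and 0.0406), and Cd79a at -0.72 was not (adjusted p = 0.0547). The 4 YC livers without these transcripts gave -1.02, -0.78, -0.80 and -0.74 for Cd3d, Cd3g, Cd79b and Nkg7, with Cd3d, Cd3g and Cd79b called. As every vehicle liver holds these transcripts, the differences of these 4 YC livers cannot be told apart from ones that go with the transcripts. In the comparison of the 3 other YC livers both groups hold them. Leaving out YC 6 and YC 7 together kept 4 calls and ended that of Cd79a (-0.52, adjusted p = 0.0895).

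**Figure D2:**
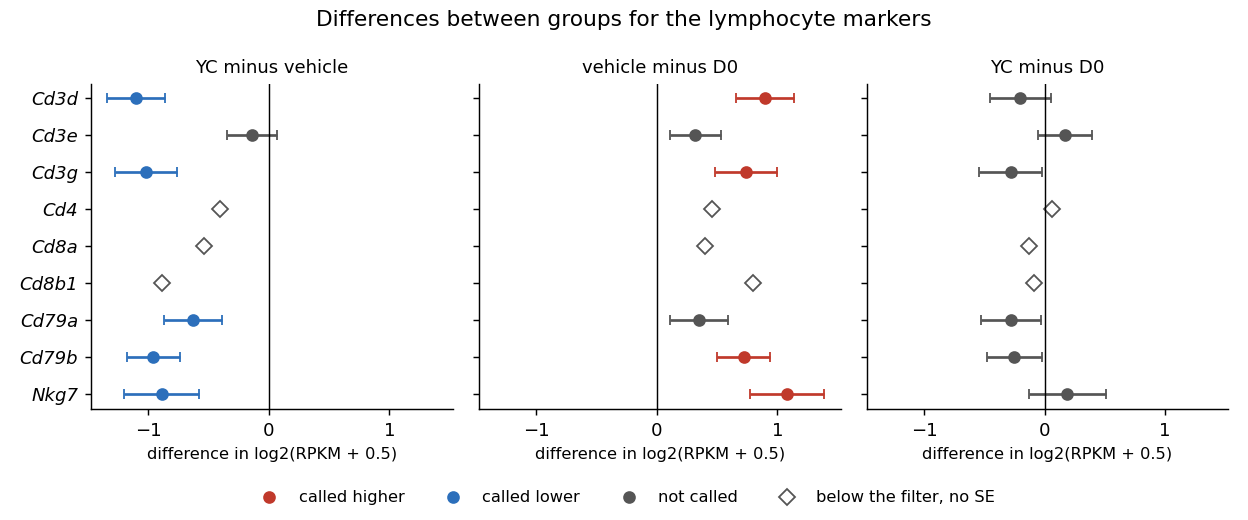
Difference in log2(RPKM + 0.5) for each marker in the 3 comparisons, with SE bars from the fit across 12537 genes and open diamonds for the 3 markers below the filter, which have no SE. The 6 tested markers lie between -1.10 and -0.14 in YC minus vehicle, between 0.32 and 1.08 in vehicle minus D0, and within 0.28 of 0 in YC minus D0.

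Vehicle livers at day 28 held more of 4 of the 6 tested markers than D0 livers, and less of none. Of all genes, 58.1% were called in this comparison, 28.2% as higher and 29.9% as lower. Nkg7 had the largest log2 difference of the 6. It ranged from 1.01 over a median of 3.70 to 9.77 RPKM in vehicle livers, against 0.653, 1.44 and 2.28 RPKM in D0 livers, and 6 of 8 vehicle livers lay above every D0 liver. The log2 difference was 1.08 ± 0.31 (SE, limma adjusted p = 0.00516).

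Cd3d was 0.90 ± 0.24 higher on the log2 scale (SE, limma adjusted p = 0.00291), with 5 of 8 vehicle livers above the D0 maximum of 1.37 RPKM. For Cd3g the difference was 0.74 ± 0.26 (SE, limma adjusted p = 0.0168), and D0 3 and D0 5 reached 2.26 and 2.04 RPKM, above the vehicle median. Cd79b differed by 0.72 ± 0.22 (SE, limma adjusted p = 0.00814). Cd3e at 0.32 ± 0.21 and Cd79a at 0.35 ± 0.24 (SE) were not called (limma adjusted p = 0.202 and 0.212). The D0 livers spread widely for Cd3e, with 0.0847 RPKM in D0 1 and 1.29 RPKM in D0 3, above the highest vehicle liver.

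Among the co-receptors, Cd8b1 had lowest, median and highest levels of 0.163, 0.587 and 2.09 RPKM in vehicle livers and of 0.159, 0.213 and 0.335 RPKM in D0 livers, where it varied little. Vehicle 2 alone lay inside the D0 range, and vehicle 1 was just above it at 0.337 RPKM. The ratio of the group means, vehicle over D0, was 4.06 for Cd8b1 and 2.83 for Nkg7. The log2 difference was 0.80 (two-sided exact permutation p = 0.00435). Cd4 differed by 0.46 (exact permutation p = 0.0168) and Cd8a by 0.40 (exact permutation p = 0.0584).

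YC livers at day 28 and D0 livers were not told apart by any of the markers. None of the 6 was called with limma, 0 had an unadjusted p under 0.05, and 0 of 9 had an exact permutation p under 0.05, while 53.4% of all genes were called, 41.2% as higher and 12.3% as lower. The log2 differences were -0.20 ± 0.25 for Cd3d, 0.17 ± 0.22 for Cd3e, -0.28 ± 0.26 for Cd3g, -0.28 ± 0.25 for Cd79a, -0.25 ± 0.23 for Cd79b and 0.19 ± 0.32 for Nkg7 (SE). A p above the threshold does not show that the levels were equal. All genes had a median of 0.25 in this comparison, and with quantile normalization 4 markers, Cd3d, Cd3g, Cd79a and Cd79b, were called lower, between -0.78 and -0.69. With array weights 1 marker, Cd3g, was called lower at -0.62. Other lymphocyte genes, from lists described below, did include calls between YC and D0 livers. Of 10 tested genes of T cell receptor signalling 4 were higher and 1 lower, and of 10 B cell genes 5 and 2. Of 11 genes of T cell identity and trafficking 2 were higher and 1 lower, and of 12 natural killer and cytotoxic genes 1 and 1. The shares over all genes are the 41.2% and 12.3% above. The 3 comparisons share groups, so their values are not independent of each other.

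Of the 36 pairs of markers, 22 had a correlation r above 0.5 among livers. The share over pairs of other genes was not worked out, so this count is not particular to the markers. Summed over the 9 markers, the level was 3.95 to 8.68 RPKM under YC, 5.95 to 32.2 RPKM under vehicle and 4.27 to 10.6 RPKM at D0. Vehicle 3 had the highest level of its group for 6 of the 9 markers and was among the highest 2 for all 9, whereas vehicle 8 had the lowest for 6 and vehicle 1 was among the lowest 2 for 7. Over the 22 libraries, with each group's mean removed, the correlation between 2 markers had a median of 0.59 over 36 pairs and a range of 0.08 to 0.82, lowest for Cd8a with Cd79b and highest for Cd3d with Nkg7. Libraries share their depth and RNA content across such pairs, and these correlations are a description.

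The same approach gave the genes whose pattern was most like that of each marker group, again with each group's mean removed over 22 libraries. For the mean of the CD3 chains they were Skap1, a T cell adaptor (r = 0.92), Ptprcap, which associates with CD45 (0.90), the chemokine gene Ccl5 (0.89), the sphingosine phosphate receptor gene S1pr4 (0.86) and Shisa5 (0.85). For the CD79 pair they included the B cell lectin gene Cd22 (0.85), the proton channel gene Hvcn1 (0.84), H2-Ob (0.76) and Cd2 (0.76). For Nkg7 they were the T cell kinase gene Lck (0.91), Spn, which encodes CD43 (0.91), Ccl5 (0.90), St6galnac4 (0.88) and Skap1 (0.88). The CD8 chains gave lower values, among them St6galnac4 at 0.76, Kcnab2 at 0.75, Napsa at 0.75 and Sema4d at 0.74.

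Transcripts shared by all leukocytes were set beside the lymphocyte markers. Ptprc, which encodes the pan-leukocyte protein CD45, averaged 3.92 ± 0.679 RPKM under YC (SD, n = 7), 3.69 ± 1.20 RPKM under vehicle (SD, n = 8) and 1.67 ± 0.346 RPKM at D0 (SD, n = 7). It was higher in both day-28 groups than in D0 livers, by 1.03 in YC and 0.92 in vehicle livers on the log2 scale (limma adjusted p = 1.82e-05 and 5.11e-05), and differed by 0.11 between YC and vehicle livers (limma adjusted p = 0.575). The summed level of the 9 markers divided by that of Ptprc was 1.10 to 2.07 under YC, 1.56 to 7.09 under vehicle and 3.35 to 5.57 at D0. YC and D0 livers did not overlap in this ratio, although their summed marker levels did. The higher Ptprc level in YC livers lowers this ratio for any gene at an equal level in both groups. How many other genes would separate these groups in the same way was not tested. Vehicle livers spanned both, with vehicle 1, vehicle 8 and vehicle 2 at 1.56, 2.10 and 2.97 and the other 5 between 5.17 and 7.09. By marker type, the summed CD3 chains and the summed CD79 chains over Ptprc did not overlap between YC and D0 livers. Nkg7 over Ptprc did, at 0.224 to 0.604 under YC and 0.556 to 1.57 at D0. Of 12 pan-leukocyte genes, 12 were higher in YC than in D0 livers and 12 in vehicle than in D0 livers. The shares of all genes called higher were 41.2% and 28.2%. Against 6.14% of all genes, 1 of the 12, Cd52, was lower in YC than in vehicle livers. That last count was 0 without vehicle 3, YC 1, YC 2 or YC 4, was 2 without YC 5, YC 6 or YC 7, and was 3 without vehicle 1 or vehicle 8. With median-ratio scaling it was 7, where 16.7% of all genes were called lower. The summed level of the 12 genes was lowest in vehicle 8 and D0 1 and highest in vehicle 3 and D0 3, as was that of the markers. Among YC livers both sums were lowest in YC 2, but the highest was YC 6 for the 12 genes and YC 3 for the markers.

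**Figure D3:**
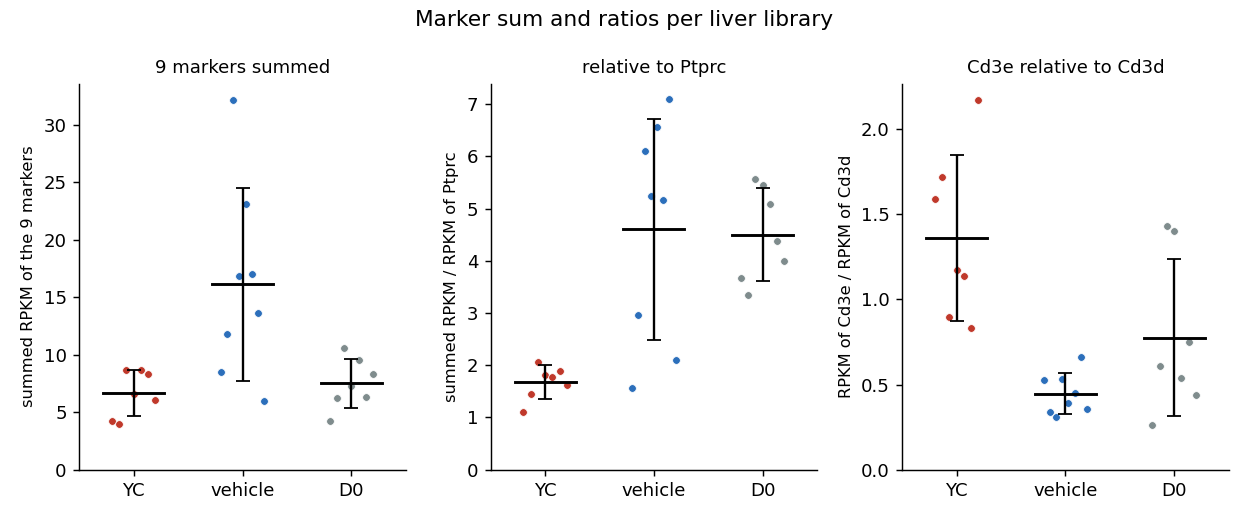
Summed RPKM of the 9 markers, that sum divided by the RPKM of Ptprc, and the Cd3e level divided by the Cd3d level, 1 point per library of the YC, vehicle and D0 groups, with bars for the mean and SD (n = 7, 8 and 7). The YC livers lie below all D0 livers in the middle panel (1.10 to 2.07 against 3.35 to 5.57), where Ptprc itself was higher in YC livers. They lie above all vehicle livers in the right panel (0.833 to 2.17 against 0.306 to 0.661).

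Other genes of T cells were compared in the same fit. Between YC and vehicle livers, 44.6% of all genes were called higher and 6.14% lower in that fit. With median-ratio scaling the shares were 18.2% and 16.7%. Between vehicle and D0 livers they were 28.2% and 29.9% as deposited. The list counts from here on are to be read beside these shares, and those for other settings are not given here. Of 10 tested genes of T cell receptor signalling (of 20 listed), 4 were lower and 1 higher in YC than in vehicle livers. The kinase gene Zap70, whose product is recruited to the phosphorylated CD3 and zeta chains, averaged 6.71 RPKM under YC and 15.2 RPKM under vehicle (log2 difference -1.24, limma adjusted p = 0.00176). Its level in vehicle livers was far above that of any CD3 chain. Cd2 (-0.95), Lck (-0.57) and the kinase gene Prkcq (-0.47) were lower too, and Cd247, the zeta chain of the receptor, was higher (0.68, limma adjusted p = 0.0473). The call of Cd247 was lost in 14 of the 22 fits that left out 1 library (adjusted p up to 0.115), all but those without D0 2, D0 3, D0 5, D0 7, vehicle 3, vehicle 6, YC 4 or YC 6, and with a pseudocount of 1, the replicate block or median-ratio scaling. Cd247 was lower in vehicle than in D0 livers (-1.79), opposite to Cd3d and Cd3g, while 6 of the 10 genes, led by Zap70 at 2.32, were higher there. Lcp2 and Fyb, adaptor genes also used by myeloid cells, differed by -0.17 and -0.07 between YC and vehicle livers and were not called. The count of 5 called was 2 without YC 1, YC 2 or YC 7 and 3 without vehicle 3, vehicle 4 or YC 3, with median-ratio scaling or quantile normalization 8 were called, all lower, and with the replicate block 6, all lower.

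Of 11 tested genes of T cell identity and trafficking (of 24), Thy1, a T cell surface glycoprotein gene (-0.70), and the lymph node homing receptor gene Ccr7 (-0.55) were lower under YC than under vehicle, and 1 gene was higher. The higher call was lost in 11 of 22 fits without 1 library. With median-ratio scaling 5 were lower and none higher, and without vehicle 1 or YC 4 the count was 4 lower and 1 higher. In vehicle against D0 livers 5 of the 11 were higher and none lower, 3 without D0 4, vehicle 3 or vehicle 5. Of all genes, 28.2% were called higher there.

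Of 10 tested B cell genes (of 22), H2-Ob, a class II modulator (-0.47), was lower and Vpreb3 (0.61) higher in YC than in vehicle livers, the call of Vpreb3 being lost without YC 6 or YC 7, and with median-ratio scaling 4 were lower and none higher. Cd22 differed by -0.20, without a call. Cd72 was the most abundant at 4.99 RPKM under YC and 5.24 RPKM under vehicle (log2 difference 0.01). In vehicle against D0 livers 7 of the 10 were higher, with Cd72 at 1.57, and 1, Vpreb3, was lower. The shares of all genes were 28.2% and 29.9%. Of 3 tested plasma cell genes (of 9 listed), 0 were called between YC and vehicle livers with limma, while 1 had an unadjusted p under 0.05. That count was 1 without vehicle 2 or vehicle 8, 2 without vehicle 7 or YC 6, and 2 with median-ratio scaling, both lower. All 3, Derl3 (1.58), Mzb1 (1.06) and Jchain (0.86), were higher in vehicle than in D0 livers.

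Of 12 tested natural killer and cytotoxic genes (of 28), 2 were lower and 2 higher in YC than in vehicle livers. Ccl5, a chemokine gene of T and natural killer cells, averaged 3.87 RPKM under YC, 14.3 RPKM under vehicle and 4.20 RPKM at D0, an order like that of the markers (log2 difference -1.51 between YC and vehicle livers, limma adjusted p = 0.00305). The granzyme gene Gzma was at the threshold (-0.93, limma adjusted p = 0.0496), and its call was lost in 17 of the 22 fits without 1 library (adjusted p up to 0.117), all but those without vehicle 1, vehicle 2, vehicle 8, YC 4 or YC 7, and with a pseudocount of 1, on rescaling to an equal total and with only the 2 groups compared. Eomes, a transcription factor gene of natural killer and cytotoxic T cells, went the other way, at 7.97 RPKM under YC and 0.616 RPKM under vehicle (log2 difference 2.92, limma adjusted p = 3.56e-08). Gzmm (0.56) was higher in YC than in vehicle livers and lower in vehicle than in D0 livers (-1.90). The natural killer receptor genes Klrb1c, Klrd1 and Klrk1 had values of -0.14, -0.34 and -0.43 without a call. With median-ratio scaling 1 gene of the 12 was higher and 4 lower. In vehicle against D0 livers 4 were higher and 1 lower, a count of calls of 3 without D0 7 and 2 without vehicle 3. The share of this list called higher there was near the 28.2% of all genes.

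**Figure D4:**
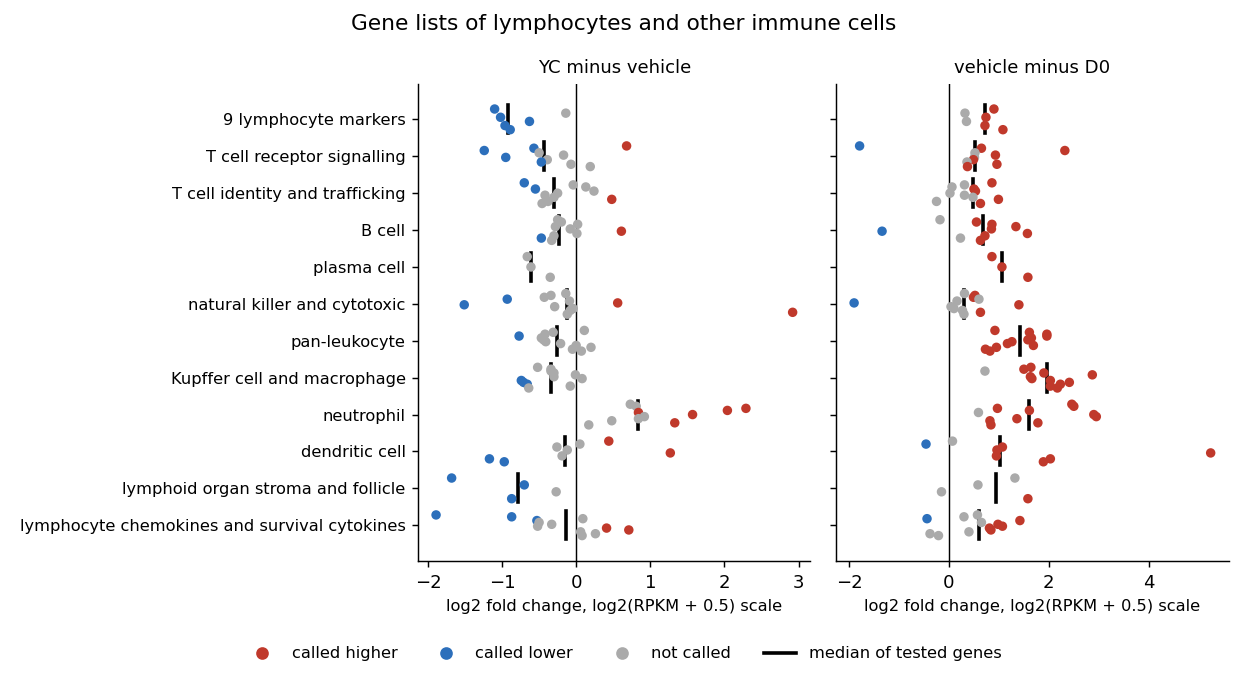
Log2 fold change (log2(RPKM + 0.5) scale) of every tested gene in each list, YC minus vehicle on the left and vehicle minus D0 on the right, coloured by call, with a bar at the list's median. The lists of hepatocyte genes and of lymphocyte precursor genes are not shown. The 6 tested lymphocyte markers have a median of -0.93 in the left panel and 0.73 in the right, and the pan-leukocyte genes -0.26 and 1.42.

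Genes of lymphoid tissue and of lymphocyte attraction were measured in the same libraries. Cxcl9, a chemokine gene that draws CXCR3-bearing T cells, averaged 2.50 RPKM under YC, 9.19 RPKM under vehicle and 6.17 RPKM at D0 (log2 difference -1.89 between YC and vehicle livers, limma adjusted p = 5.35e-05). Of 12 tested chemokine and survival cytokine genes (of 15), Cxcl9, Cxcl10 (-0.87) and Cxcl16 (-0.53) were lower under YC than under vehicle, and the lymphocyte survival cytokine gene Il7 (0.71) and Cx3cl1 (0.41) were higher. With median-ratio scaling 3 were lower and none higher, and 3 were called without vehicle 2, vehicle 3, vehicle 4, YC 1 or YC 2. The call of Cx3cl1 was lost in 17 of 22 fits without 1 library and that of Cxcl10 in 6. In vehicle against D0 livers 5 were higher, led by Cxcl16 at 1.42, and Cxcl12 was lower (-0.44). Of 4 tested genes of lymphoid organ stroma and follicles (of 9), Ccl21a (-1.68), Ltb (-0.87) and Ccl19 (-0.70) were lower under YC than under vehicle. None of these calls was left without vehicle 4, YC 1 or YC 7, and 1 without YC 6. The list's summed level was highest in vehicle 3, at 64.2 RPKM, of which Ccl21a made 45.3 RPKM, and vehicle 3 was also the liver with the most lymphocyte marker transcripts. Its range was 6.39 to 14.9 RPKM under YC, 5.57 to 64.2 RPKM under vehicle and 3.94 to 11.5 RPKM at D0, and its part in the marker levels was not tested.

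Within the split by Y-linked transcripts the list counts moved too. The shares of all genes called in fits split by these transcripts are not given here. Whether the lists moved more than all genes did is therefore not known. The 3 YC livers with these transcripts gave 1 gene higher and 3 lower than vehicle livers for T cell receptor signalling, 1 lower for T cell identity and trafficking, 2 lower for B cells, 1 higher and 3 lower for natural killer and cytotoxic genes, and 2 lower for pan-leukocyte genes. The 4 YC livers without them gave 2 lower for T cell receptor signalling, 1 higher for B cells and 2 higher for natural killer and cytotoxic genes. In these 4 livers limma called 0 genes of T cell identity and trafficking, with 4 at an unadjusted p under 0.05, and 0 pan-leukocyte genes, with 0 at an unadjusted p under 0.05. Thy1 and Ccr7 lost their calls in both splits, and also without YC 6 and YC 7. The 1 lower gene of T cell identity and trafficking above is therefore neither of these 2. For chemokine and survival cytokine genes the YC livers with these transcripts gave 1 higher and 4 lower, and those without gave 1 higher and 1 lower. For lymphoid organ stroma and follicles the YC livers with these transcripts gave 1 lower, and for those without limma called 0, with 2 at an unadjusted p under 0.05.

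Lists of other cells were also compared between YC and vehicle livers. Of 12 Kupffer cell and macrophage genes, C1qa (-0.74), C1qb (-0.71) and C1qc (-0.66) were lower, a count of 5 without vehicle 8, YC 6 or YC 7, of 7 with median-ratio scaling and of 5 in the YC livers with Y-linked transcripts, while in those without them limma called 0, with 2 at an unadjusted p under 0.05. Of 11 tested neutrophil genes 5 were higher, led by Mpo (2.29), a share near the 44.6% of all genes called higher. That count was 8 without YC 2, 2 in the YC livers with Y-linked transcripts and 7 in those without. With median-ratio scaling it was 3, where 18.2% of all genes were called higher. Of 8 tested dendritic cell genes, the class II genes H2-Aa (-1.17) and H2-Ab1 (-0.97) were lower and Ly6d (1.27) and Clec9a (0.44) higher, the call of Clec9a being lost in 12 of 22 fits without 1 library. Dntt, the 1 tested lymphocyte precursor gene, was lower (-0.98), and 5 of 6 hepatocyte genes were lower, by most for Fah (-1.61) and Serpina1a (-1.29). The summed hepatocyte level was 31190 to 56190 RPKM under YC, 57870 to 90730 RPKM under vehicle and 43760 to 62060 RPKM at D0. The lymphocyte markers and the hepatocyte genes were thus both lower in YC livers relative to library size, and the part of any change in hepatocyte RNA in the marker levels was not tested.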

How the data were processed

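Liver RNA was extracted with TRIzol and polyadenylated RNA was sequenced, per the labels' protocols. The authors deposited 1 table of RPKM values, 1 column per library. Per the submitters' processing notes, TopHat 1.4.1 and Cufflinks 1.3.0 were used with mm10. Which of them made the values, the annotation, strand and filters, all not given in the sources used here, remain unknown, and reads of overlapping genes cannot be told apart. Of 18716 rows, 27 carried dates as names and 2 names were repeated. Gene positions come from GENCODE for the same build.

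A gene was tested where 7 or more libraries reached 0.5 RPKM (12537 genes). Under R 4.3.3, limma 3.58.1 (lmFit, then robust eBayes with a trend, through statmod 1.5.0) fitted log2(RPKM + 0.5) in 1 model of the 3 groups without covariates. P-values are two-sided, adjusted by the Benjamini-Hochberg method over all genes, and called under 0.05. The fit was tested on simulated data. Single markers were also compared by exact permutation of mean log2 values (Python 3.11.15, numpy 2.4.6, pandas 2.3.3, scipy 1.17.1, plots with matplotlib 3.10.9). Depths come from value steps in 295 low genes with 1 transcript, of whose values 98.7% lay within 0.05 of a whole number. Whether they are reads or fragments is not known, and no count test was run.

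The markers and the 13 other lists (187 genes, 182 in the table) were chosen with earlier results of these data known. Named were all markers and, per list, the called gene with the smallest adjusted p in each comparison, the most abundant tested gene and up to 3 further called genes in YC against vehicle livers. Other genes named (Ptprc, Cd22, Lcp2, Fyb, the Klr genes and further called genes of small counts) were chosen after their values were seen. Some genes that these rules name are not reported here. Alternatives were 13 planned settings, 2 added splits by Y-linked transcripts and leaving out each of the 22 libraries.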

Additional observations from a re-analysis of the deposited data

Results flagged for a closer look

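Over 27 sets of a marker in a group, 3 single libraries lay further from the rest of their group than the gap test allows at 95%, and chance gives about 1 in 20. All concern the CD8 chains, with 38, 25 and 104 reads of the marker in the libraries named next. Cd8b1 was at 0.473 RPKM in the library YC 3, with the next YC liver at 0.222 RPKM. Cd8b1 was at 0.335 RPKM in D0 6, with the next D0 liver at 0.232 RPKM. Cd8a was at 0.653 RPKM in D0 4, with the next D0 liver at 0.271 RPKM.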

How the results depend on the processing

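Between YC and vehicle livers 5 markers were called, 8 without a filter on low values (where all 9 were tested and Cd3e alone was not called), 3 with YC livers without Y-linked transcripts alone, and 3 to 5 when single libraries were left out. Cd79a lost its call with only the 2 groups compared (-0.63, adjusted p = 0.0569). Between YC and D0 livers 0 were called, 4 with quantile normalization and 1 with array weights. There Cd3e was -0.29 with quantile normalization, and Nkg7 was -0.31 in that setting, -0.06 after median-ratio scaling, -0.04 under array weights and -0.01 for YC livers with Y-linked transcripts alone, each against a small positive value as deposited. Between vehicle and D0 livers 4 were called, and Cd3g lost its call with quantile normalization (0.59, adjusted p = 0.0605). The cause of these changes was not tested. No marker changed direction between YC and vehicle livers or between vehicle and D0 livers under the settings run.

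The replicate numbers did not pair the libraries: correlations of same-numbered deviations ran from -0.386 to 0.227, over 0.1 in 2, 2 and 1 of 7 pairs for the 3 comparisons, and 2 of 14 libraries in each correlated best with their own number. With the replicate number as a block the counts of markers called were 5 between YC and vehicle livers, 6 between vehicle and D0 livers (Cd3e at 0.40 and Cd79a at 0.48 added) and 0 between YC and D0 livers. Reads per marker, as few as 4, limit Cd4, Cd8a and Cd8b1 most.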
